A study of Mus musculus with 11 samples.

Results

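The IL-1 family genes described here are 10 mouse genes: the ligands Il1a, Il1b, Il33 and Il18, the receptor antagonist Il1rn, the receptors Il1r1, Il1rl1 and Il18r1, the shared receptor chain Il1rap, and the decoy receptor Il1r2. They were taken by symbol from the deposited table of 24974 genes, and all 10 were kept by a filter that asked for 0.5 RPKM on average across all 11 libraries, which left 14233 genes for testing. RPKM are reads scaled by gene length and by library size, so levels can be set side by side between genes. The study sequenced RNA of skin and skin tumors after treatment of the back with the carcinogen DMBA. All mice, the wild-type (WT) controls included, received 3 topical doses of 100 µg DMBA in 200 µl, spaced 1 week apart, with tissue taken 31 weeks after the start. The groups were WT skin (3 libraries), skin of Dlx3 conditional knockout (Dlx3 KO, labelled DLX3cKO) mice that was free of tumors (3 libraries) and tumors of Dlx3 KO mice (5 libraries). Dlx3 is a homeobox factor of hair and of the differentiating epidermis. The labels used here name no Cre driver, strain, sex or age and do not tie a library to an animal. A tumor and a skin may therefore come from the same mouse, and the p-values measure only the spread between these samples. WT tumors are not among the groups.

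The IL-1 family alerts tissue to damage. Il1a and Il1b bind Il1r1, which pairs with the shared chain Il1rap and signals through Myd88 to NF-kB. Il1rn occupies the same receptor without signalling, and Il1r2 binds the ligands but lacks a signalling domain. Il33 signals through Il1rl1 (ST2) with Il1rap, and Il18 through Il18r1 with its own partner chain. Keratinocytes hold stores of IL-1α and IL-18, IL-33 sits in the nuclei of barrier cells, and IL-1β and IL-18 are cut to their active forms by caspase-1.

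The libraries held 29265111 to 75707445 alignments. For 5 members the RPKM were whole multiples of what 1 read is worth, and these genes had between 21 reads (Il1b in the library labelled WT skin 2) and 5537 reads (Il33 in tumor 2). For the targeted gene Dlx3, WT skin 1 and 3 had 49.9 and 89.9 RPKM, and the Dlx3 KO skins 4.08 to 8.88. The library labelled WT skin 2 went against its label, with 7.35 RPKM of Dlx3, and it was also near the Dlx3 KO skins in the summed RPKM of 10 hair shaft genes (697, against 75.1 to 683 in Dlx3 KO skin and 3019 and 3766 in WT skin 1 and 3). The labels do not give the deleted exons, so Dlx3 reads in the Dlx3 KO libraries do not show whether the deletion took place. Xist ranged over 10.1 to 14.6 RPKM among the Dlx3 KO skins, whereas WT skin 1 and 3 had 0.466 and 0.149. With 12.5, the library labelled WT skin 2 was again near the Dlx3 KO skins. Tumors 3 and 4 were low as well, at 0.616 and 0.094, and the other tumors had 11.8 to 21.97. Ddx3y, which lies on the Y chromosome, mirrored Xist. Its highest levels were 15.7 (WT skin 1), 11.1 (WT skin 3), 9.22 (tumor 3) and 8.54 (tumor 4), and no other library exceeded 0.687. By Xist and Ddx3y, WT skin 1 and 3 read as male and all Dlx3 KO skins as female. Skin results without the library labelled WT skin 2 thus cannot separate genotype from sex. With Xist as a term of the fit, the skin log2 fold changes given below were 2.003 for Il18 and 1.62 for Il1a (adjusted p = 0.458 for each). Among the skins, only the library labelled WT skin 2 lets that term be told apart from the label. The ribosomal RNA precursor Rn45s was highest in tumor 5 (11833 RPKM) and WT skin 1 (10021), and at 612 to 3242 in the other libraries. A sample sheet places the WT skins, Dlx3 KO skin 2 and 3 and tumor 5 in the first of 2 sequencing runs. Keratinocyte markers were found in every library, none of the 11 genes being at 0, with sums from 5730 RPKM in WT skin 1 to 51240 in the library labelled WT skin 2.

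In the mouse genome (mm10, GENCODE M21) several members are neighbors. Il1r2 (chr1:40074079-40125231), Il1r1 (chr1:40225080-40317257), Il1rl1 (chr1:40429570-40465415) and Il18r1 (chr1:40465552-40500854) lie in this order on the plus strand of chromosome 1. Il1rl2, a family receptor outside the 10 members, lies between Il1r1 and Il1rl1 (chr1:40324610-40367562, plus strand). Il1a (chr2:129299610-129309972) and Il1b (chr2:129364570-129371139) lie side by side on the minus strand of chromosome 2, and Il1rn (chr2:24336853-24351494, plus strand) lies elsewhere on that chromosome, near Il1f8 and Il1f10. Il18 (chr9:50554827-50581840), Il1rap (chr16:26581704-26730117) and Il33 (chr19:29925114-29960718) stand alone. The values are sums over whole genes and do not separate the secreted and membrane forms of Il1rl1, or the secreted and intracellular forms of Il1rn.

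The 250 bases before a start site are shown for the 3 members with the largest log2 fold changes between the skins and for Il33, the ligand called higher in tumors: Il1a (chr2:129309973-129310222, minus strand), Il18 (chr9:50554450-50554699, plus strand), Il33 (the first of its 2 starts, chr19:29924863-29925112, plus strand) and Il1rn (the first of its 3 starts, chr2:24336610-24336859, plus strand). They are read 5′ to 3′ from the RefSeq promoter table of GRCm38.p6, in which all 10 members matched with 17 starts. Capitals mark the letters of the AP-1 motif, TGANTCA, searched on both strands.
Il1a: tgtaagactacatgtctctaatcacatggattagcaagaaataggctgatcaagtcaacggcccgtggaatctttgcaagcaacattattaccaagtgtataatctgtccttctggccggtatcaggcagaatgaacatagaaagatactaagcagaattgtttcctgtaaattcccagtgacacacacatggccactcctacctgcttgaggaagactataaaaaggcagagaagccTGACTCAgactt
Il18: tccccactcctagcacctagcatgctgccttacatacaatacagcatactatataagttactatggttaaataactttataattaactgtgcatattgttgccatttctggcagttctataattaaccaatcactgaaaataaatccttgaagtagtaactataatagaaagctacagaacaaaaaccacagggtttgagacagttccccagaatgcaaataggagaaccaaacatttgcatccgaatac
Il33: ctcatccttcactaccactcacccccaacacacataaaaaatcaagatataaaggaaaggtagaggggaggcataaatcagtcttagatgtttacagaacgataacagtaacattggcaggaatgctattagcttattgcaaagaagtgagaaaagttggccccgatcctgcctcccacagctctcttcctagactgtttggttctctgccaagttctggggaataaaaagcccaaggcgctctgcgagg
Il1rn: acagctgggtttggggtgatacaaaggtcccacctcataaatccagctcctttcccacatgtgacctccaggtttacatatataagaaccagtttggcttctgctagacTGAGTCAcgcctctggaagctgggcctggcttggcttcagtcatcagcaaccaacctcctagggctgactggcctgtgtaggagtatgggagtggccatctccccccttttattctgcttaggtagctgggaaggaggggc
The AP-1 letters began 12 bases before the start of Il1a and 141 bases before the first start of Il1rn, and none were found before the other starts of the members. They occur in 6.75% of 32851 promoters of this length. A search for the NF-kB consensus, on both strands, found none before the members' starts, against 0.356% of all promoters. A match describes letters only, and its absence says nothing of a factor.

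Il18 and Il1a were the members with the smallest p between the 2 skins, both higher in Dlx3 KO skin, but no member passed the test there. For Il18, a stored cytokine of the epidermis, WT skin 1 to 3 had 9.11, 11.9 and 6.97 RPKM, and Dlx3 KO skin 1 to 3 had 35.5, 43.3 and 30.5. All Dlx3 KO skins lay above all WT skins, by 3.91 times in the mean (36.5 ± 6.43 against 9.31 ± 2.45, SD, n = 3 each). This gave a log2 fold change of 1.93 ± 0.43 (SE), with an adjusted p of 0.256 (limma, Benjamini-Hochberg over all genes tested). Il1a, the alarm ligand that keratinocytes release when they break, measured 2.08, 3.68 and 2.01 RPKM for the WT skins and 7.74, 13.6 and 7.85 for those with the knockout. Its groups did not overlap either, with a log2 fold change of 1.72 ± 0.44 (SE) and an adjusted p of 0.256. The direction is drawn with the library labelled WT skin 2 among the controls. Without it the log2 fold change was 2.11 for Il18 (adjusted p = 0.0769) and 1.96 for Il1a (adjusted p = 0.106), and no member was called.

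Of the 10 members, 0 were called between the skins and 9 had a positive log2 fold change, with a median of 0.62 against 0.06 over all genes tested. The background for calls in this comparison was 0.0%, since limma called 0 of 14233 genes, with 1229 at an unadjusted p under 0.05. Without the library labelled WT skin 2 there were 229 called genes. For 5 members, Il18, Il1a, Il1rn, Il1b and Il1rap, every Dlx3 KO skin lay above every WT skin, and no member lay wholly below. Among all genes tested, 16.4% did not overlap between the skins, 11.3% being wholly higher and 5.1% wholly lower. Marker levels moved with the skins as well. Keratinocyte markers summed to 30375 to 31561 RPKM in Dlx3 KO skin against 5730 and 5971 in WT skin 1 and 3. Of all 11 libraries the one labelled WT skin 2 had the highest keratinocyte sum, and Il18 and Il1a there were below all 3 Dlx3 KO skins. Hair shaft markers ran the other way, as given above for their sums. The part of either cell type in the result was not tested.

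**Figure D1:**
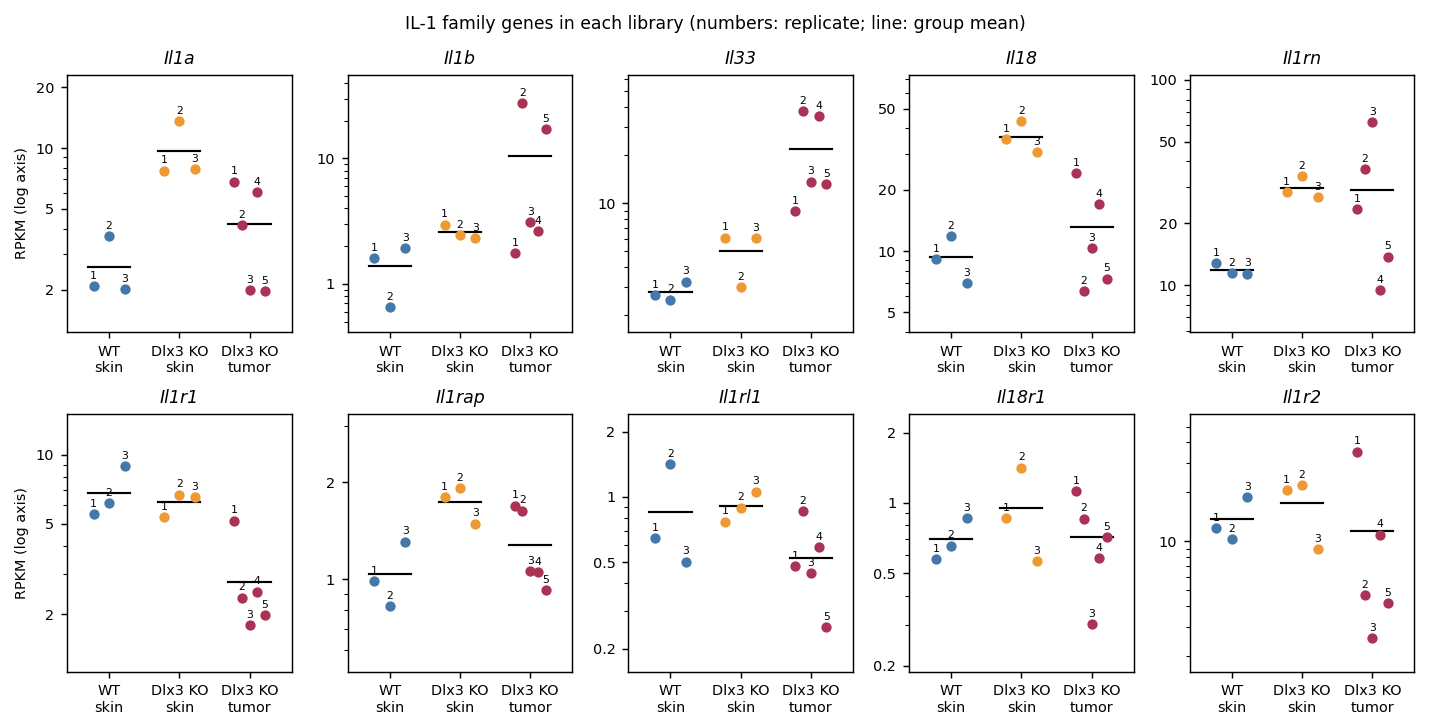
RPKM of the 10 members (log axis) in each library, numbered by replicate, for WT skin, Dlx3 KO skin and Dlx3 KO tumors; the line is the group mean. Il18 and Il1a are highest in Dlx3 KO skin, Il33 is higher in all 5 tumors than in any skin, and Il1b is high in tumors 2 and 5.

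Il33 was the ligand that rose in the tumors. WT skin had 2.67, 2.50 and 3.23 RPKM, Dlx3 KO skin 6.09, 2.98 and 6.08, and tumors 1 to 5 had 8.93, 37.5, 13.7, 35.2 and 13.2. Every tumor lay above every skin, with tumors 2 and 4 highest and tumor 1 nearest to the skins. The mean of 21.7 ± 13.5 RPKM (SD, n = 5) was 4.29 times that of Dlx3 KO skin and 7.74 times that of WT skin. Against Dlx3 KO skin its log2 fold change was 1.83 ± 0.45 (SE, adjusted p = 0.0326, limma), and against WT skin 2.53 ± 0.45 (adjusted p = 0.0032). Between the 2 skins Il33 did not pass the test, with a log2 fold change of 0.70 ± 0.50 (adjusted p = 0.749) and overlapping groups. Both tumor comparisons share the 5 tumor libraries. Some keratinocyte markers moved with Il33 and others went the other way. Krt14, a keratin of the basal layer, had means of 1700, 2809 and 10008 RPKM in WT skin, Dlx3 KO skin and tumors, and it was called higher in the tumors against both skins, as was the basal integrin chain Itga6. Of the 11 markers, 2 were called higher and 0 lower against Dlx3 KO skin, while 3 were higher (Krt5 in addition) and 1 lower (Krt15) against WT skin. By sign alone, 5 were higher and 6 lower against Dlx3 KO skin, with a median log2 fold change of -1.30. Against WT skin 8 were higher and 3 lower, with a median of 0.53. Their part in the rise of Il33 was not tested.

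Il18 fell in the tumors relative to Dlx3 KO skin. It was at 24.2, 6.38, 10.4, 17.1 and 7.32 RPKM in tumors 1 to 5, and every tumor lay below every Dlx3 KO skin. The tumor mean of 13.1 ± 7.51 RPKM (SD, n = 5) was 0.359 of that of Dlx3 KO skin, with a log2 fold change of -1.602 ± 0.39 (SE, adjusted p = 0.0316). Against WT skin the groups overlapped, with a log2 fold change of 0.33 ± 0.39 (adjusted p = 0.626). The 11 keratinocyte markers, summed, spanned 15849 to 46902 RPKM in the tumors around the 30375 to 31561 of Dlx3 KO skin, with a median log2 fold change of -1.30. Those of the differentiated layers had lower means in the tumors without passing the test, such as Ivl (61.9 against 133 RPKM), Dsg1a (55.5 against 117) and Lor (2629 against 7149). Their part in the fall of Il18 was not tested. Il1a had a like order of means without passing the test. It was at 6.82, 4.16, 1.99, 6.03 and 1.97 RPKM in the tumors, below every Dlx3 KO skin, with a log2 fold change of -1.22 ± 0.40 (adjusted p = 0.0850). Without tumor 1 it was -1.42 with an adjusted p of 0.0225, and leaving out other single libraries gave an adjusted p of up to 0.295. Across the 11 libraries the log2 levels of Il1a and Il18 had a Pearson r of 0.90, a description over libraries that share their groups.

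Il1b, the ligand made on demand by myeloid and other cells and cut by caspase-1, was low in all skins and in 3 tumors. WT skin had 1.603, 0.658 and 1.92 RPKM and Dlx3 KO skin 2.98, 2.46 and 2.33. Tumors 1 to 5 had 1.77, 27.4, 3.12, 2.62 and 17.2 RPKM, so that tumors 2 and 5 stood above all other libraries and the other 3 lay near the Dlx3 KO skins. Its log2 fold change was 1.10 ± 0.75 (SE, adjusted p = 0.376) against Dlx3 KO skin and 1.87 ± 0.75 (adjusted p = 0.117) against WT skin. Without tumor 1 the second of these was 2.26 with an adjusted p of 0.0455, and with other single libraries left out its adjusted p reached 0.299. Summed neutrophil markers were at 243.5 RPKM in tumor 5 and at most 27.0 in every other library, tumor 2 included. In tumor 5 most of that sum was Ltf, at 218 RPKM. Csf3r, Retnlg and Trem1 were highest among the tumors in the same tumors 2 and 5. Csf3r was at 3.15 and 3.24 RPKM (0.852 to 1.35 in the other tumors) and Retnlg at 2.88 and 3.50 (0.116 to 0.786). Trem1 was at 1.15 and 0.843 (0.053 to 0.151). Retnlg was also at 3.55 in Dlx3 KO skin 1. Cxcr2 did not set these tumors apart, at 11.5, 17.4, 17.4, 11.8 and 17.0 RPKM in tumors 1 to 5. Ly6g, Ngp, Mpo, Camp and Mmp8 were at no more than 0.641 RPKM in any library. Among the tumors they were highest in tumors 3, 4, 1, 4 and 2, in that order. Of the list of 10 genes 4 were tested with 0 called. The part of neutrophils in the level of Il1b was not tested. Macrophage and dendritic cell markers summed to 92.9 RPKM in tumor 2 and 80.6 in tumor 5, below every skin (351 to 477). Tumors 1, 3 and 4 were below every skin as well, at 321, 79.3 and 193, so this did not set tumors 2 and 5 apart. In whole tissue, fewer cells of a type and less RNA per cell cannot be told apart.

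Il1rn, the antagonist of the IL-1 receptor, was the most abundant member in the tumors by its mean and spanned the widest range there in RPKM, while Il1b and Il1r2 had a larger ratio of highest to lowest tumor. WT skin had 12.8, 11.4 and 11.4 RPKM and Dlx3 KO skin 28.5, 33.9 and 26.7, 2.50 times higher in the mean without overlap. Between the skins the log2 fold change was 1.28 ± 0.54 (SE, adjusted p = 0.527). The tumors were at 23.4, 36.8, 62.3, 9.43 and 13.8 RPKM. Tumors 2 and 3 were thus above every skin and tumor 4 below every skin, and the tumor mean of 29.2 ± 21.3 (SD, n = 5) was close to the 29.7 ± 3.71 of Dlx3 KO skin. The log2 fold change was -0.32 ± 0.48 (adjusted p = 0.708) against Dlx3 KO skin and 0.96 ± 0.48 (adjusted p = 0.213) against WT skin.

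Il1r1, the signalling receptor of IL-1α and IL-1β, fell in the tumors relative to both skins. WT skin had 5.48, 6.13 and 8.90 RPKM, Dlx3 KO skin 5.35, 6.70 and 6.54, and tumors 1 to 5 had 5.15, 2.37, 1.80, 2.52 and 1.98. All 5 tumors lay below all 6 skins, tumor 1 just below the lowest skin and the other 4 far below it. Il1r1 had a log2 fold change of -1.11 ± 0.29 (SE, adjusted p = 0.0399) against Dlx3 KO skin and -1.22 ± 0.29 (adjusted p = 0.0155) against WT skin. The skins themselves differed by a log2 fold change of -0.11 ± 0.32 (adjusted p = 0.953).

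Marker genes of other cells moved with Il1r1 in the tumors. Macrophage and dendritic cell markers summed to 354 to 477 RPKM in Dlx3 KO skin and to 321, 92.9, 79.3, 193 and 80.6 in tumors 1 to 5, with 7 of 11 tested genes called lower and none of the 13 at 0. Endothelial markers summed to 36.2 to 50.3 RPKM in Dlx3 KO skin and at most 35.4 in the tumors, with 1 of 7 called lower. Fibroblast sums were 651 to 1317 RPKM for Dlx3 KO skin against 165 to 1654 for the tumors, with 0 of 8 called. Skeletal muscle and adipocyte markers summed to 4069 to 9674 RPKM against 429 to 3019, with 9 of 10 called lower. Tumor 1, in which Il1r1 was closest to the skins, also had the macrophage and fibroblast sums closest to or above those of the skins. Its muscle and adipocyte sum ran the other way, as the lowest of the tumors at 429 RPKM. Tumor 3, lowest in Il1r1, had the highest such sum at 3019, of which Fabp4 made up 2984. The part of these cells in the fall of Il1r1 was not tested.

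The shared chain Il1rap and the receptors of IL-33 and IL-18 were low throughout. Il1rap spanned 0.823 to 1.31 RPKM in WT skin, 1.49 to 1.93 in Dlx3 KO skin and 0.925 to 1.69 among tumors. Its skins did not overlap, with a log2 fold change of 0.55 ± 0.24 (SE, adjusted p = 0.553). Il1rl1, the IL-33 receptor, spanned 0.503 to 1.42 RPKM in WT skin, 0.769 to 1.06 in Dlx3 KO skin and 0.251 to 0.860 among tumors, with a log2 fold change of -0.48 ± 0.26 (adjusted p = 0.270) between tumors and Dlx3 KO skin. Il18r1, the IL-18 receptor of lymphocytes, ranged from 0.572 to 0.862, 0.562 to 1.42 and 0.302 to 1.12 RPKM in the same groups, with log2 fold changes of 0.24, -0.25 and -0.01 in the 3 comparisons. None of these passed a test. With 0.5 RPKM added before the log, fold changes of genes at these levels are understated.

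Il1r2, the decoy receptor, had the highest mean of all members in WT skin, lay below Il18 and Il1rn in Dlx3 KO skin and spread widely in the tumors. WT skin had 11.9, 10.3 and 18.5 RPKM and Dlx3 KO skin 20.4, 21.98 and 8.93. Tumor 1 had 35.2 RPKM, above every other library, and tumors 2 to 5 had 4.68, 2.55, 10.96 and 4.19. Relative to Dlx3 KO skin the log2 fold change was -1.06 ± 0.67 (SE, adjusted p = 0.345). Without tumor 1 it was -1.605 with an adjusted p of 0.0273. Leaving out other single libraries gave an adjusted p of up to 0.609.

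**Figure D2:**
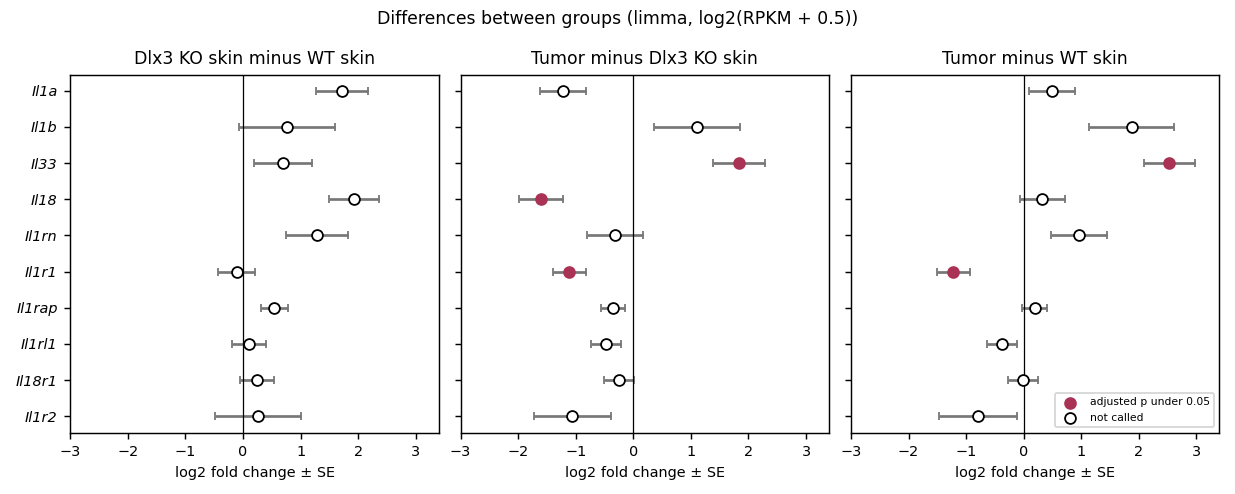
Log2 fold change with its SE (limma on log2(RPKM + 0.5)) for the 10 members in the 3 comparisons; filled points have an adjusted p under 0.05. Between the skins no member is filled, against Dlx3 KO skin Il33, Il18 and Il1r1 are, and against WT skin Il33 and Il1r1 are.

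Relative to Dlx3 KO skin, 1 member was called higher (Il33) and 2 lower (Il18 and Il1r1). Of all genes tested, 7.55% were called, 0.998% higher and 6.56% lower. The median log2 fold change was -0.42 over the members and -0.23 over all genes, and 8 of 10 were negative, of which Il18r1 and Il1rap turned positive under quantile scaling. For 4 members the groups did not overlap, Il33 higher and Il1a, Il18 and Il1r1 lower, against 19.4% of all genes (4.65% higher and 14.8% lower). Against WT skin, Il33 was called higher and Il1r1 lower, where 15.5% of all genes were called, 3.56% higher and 12.0% lower. These were also the 2 members without overlap there, against 16.1% of all genes (3.89% higher and 12.2% lower).

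The calls against Dlx3 KO skin were near the threshold. Il33 was called under 11 of 26 alternative settings, Il18 under 14 and Il1r1 under 10, with the direction the same in all. Leaving out Dlx3 KO skin 1, 2 or 3 ended all 3 calls, with adjusted p of 0.0710, 0.147 and 0.0904 for Il33, of 0.0911, 0.131 and 0.0918 for Il18 and of 0.0864, 0.149 and 0.156 for Il1r1. Leaving out tumor 2 or 3 also ended them (0.0649 and 0.0519 for Il33, 0.0687 and 0.0732 for Il18, 0.0919 and 0.0935 for Il1r1). Tumor 4 ended those of Il33 (0.0579) and Il1r1 (0.0738), and tumor 5 those of Il18 (0.0566) and Il1r1 (0.0763). Among the controls not compared, WT skin 3 ended the call of Il33, which then lay just past 0.05, and the library labelled WT skin 2 that of Il1r1 (0.0501). Without tumor 1 all 3 adjusted p were lower, at 0.0047, 0.0025 and 0.0017, with log2 fold changes of 2.09, -1.86 and -1.33. The first run holds tumor 5 alone of the tumors and the second Dlx3 KO skin 1 alone of the Dlx3 KO skins, so their values have no spread in that arm. Within the first run the log2 fold changes were 1.51 for Il33, -2.24 for Il18 and -1.52 for Il1r1, and within the second 1.65, -1.42 and -0.84. In the authors' deposited table, the q-values of these 3 genes against Dlx3 KO skin were 0.0913, 0.0913 and 0.0896.

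The calls against WT skin were recomputed in the same way. Il33 was called under 24 of 25 settings and without any single library, with log2 fold changes from 2.05 to 2.97, and only a term for the sequencing run ended the call (adjusted p = 0.0710). Il1r1 was called under 22 of 25. It was not called without WT skin 3 (adjusted p = 0.0726) or with a run term (0.0966). Without the library labelled WT skin 2, both stayed called, Il33 at 2.46 (adjusted p = 0.0136) and Il1r1 at -1.28 (0.0347). Within the first run, where tumor 5 was the only tumor, the log2 fold change was 2.05 for Il33 and -1.53 for Il1r1, with no spread in the tumor arm, while the second run held no WT skin. In the authors' deposited table, the q-value against WT skin was 0.0170 for Il33 and 0.0372 for Il1r1.

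**Figure D3:**
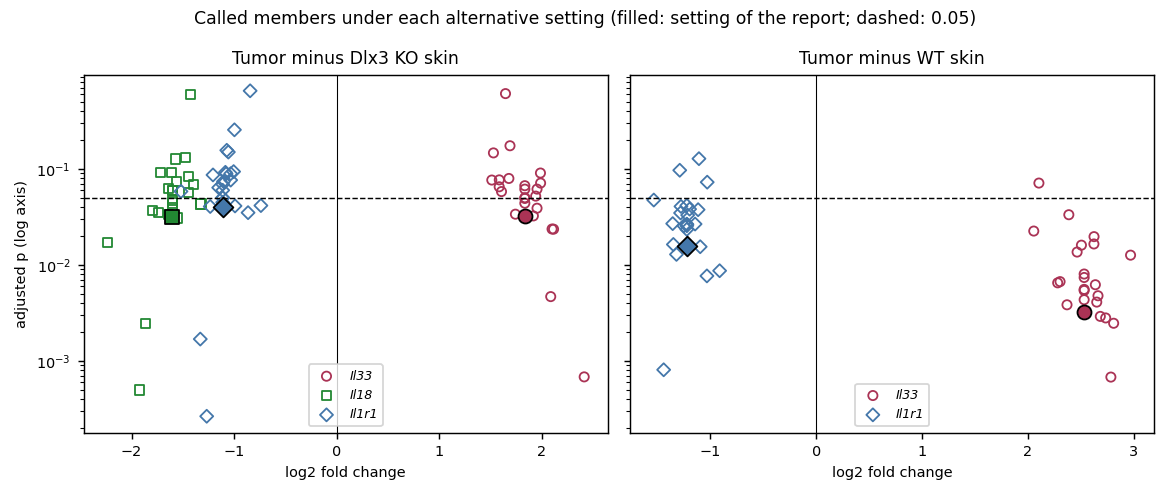
Log2 fold change (x axis) and adjusted p (y axis, log) of the called members under each alternative setting, for tumors against Dlx3 KO skin and against WT skin; the large filled symbol is the setting of the text and the dashed line is 0.05. All symbols of a gene stay on 1 side of 0, but against Dlx3 KO skin many lie above the line.

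Ratios of antagonist, decoy and receptor to their partners were compared within libraries. Il33 over Il1rl1 was 18.5 to 59.96 on the plain scale in the tumors and 1.76 to 7.91 in the skins, so the groups did not overlap. For the test 0.5 RPKM was added to both sides of each ratio before the log, which lowers the ratios over Il1rl1, a gene near that level. On this scale the mean log2 ratio was 4.24 ± 0.711 (SD, n = 5) in tumors, 1.93 ± 0.543 (n = 3) in Dlx3 KO skin and 1.34 ± 0.637 (n = 3) in WT skin. The differences of 2.31 and 2.90 had an exact permutation p of 0.0357 each, two-sided, the smallest that 5 against 3 libraries allow, and an adjusted p of 0.161 over 9 tests. Il1rn over the sum of Il1a and Il1b lay between 2.11 and 3.46 in the 6 skins and was 2.73, 1.16, 12.2, 1.09 and 0.718 in tumors 1 to 5. Tumor 3 had the highest ratio and tumor 5, with more ligand than antagonist RNA per length, the lowest, and the exact permutation p was 0.821 against Dlx3 KO skin and 0.679 against WT skin. Il1r2 over Il1r1 was 1.36 to 3.81 in the skins and 1.42 to 6.83 in the tumors, with exact permutation p of 0.893 and 0.571. Between the skins 3 against 3 libraries allow no p below 0.1, and the 3 ratios had 0.3, 0.5 and 0.3.

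The order of the members by mean level changed between the groups. In WT skin Il1r2 (13.6 RPKM), Il1rn (11.9) and Il18 (9.31) led, and these 3 overlapped by their ranges, as did Il1r1 (6.83) with Il18. In Dlx3 KO skin Il18 (36.5) and Il1rn (29.7) led with overlapping ranges, above all values of Il1r2 (17.1), Il1a (9.72), Il1r1 (6.19) and Il33 (5.05). In the tumors the order was Il1rn (29.2), Il33 (21.7), Il18 (13.1), Il1r2 (11.5), Il1b (10.4), Il1a (4.19) and Il1r1 (2.76), and each of these overlapped its neighbors. Il1rap, Il18r1 and Il1rl1 came last in every group, with means of 0.525 to 1.74 RPKM.

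The tumors differed in which members were high. Tumor 2 was highest in Il33 (37.5 RPKM) and Il1b (27.4) and lowest in Il18 (6.38). Tumor 4 was nearly as high in Il33 (35.2) but had 2.62 of Il1b and the lowest Il1rn (9.43). Tumor 3 led in Il1rn (62.3) and was lowest in Il1r1 (1.80), Il1r2 (2.55) and Il18r1 (0.302). Tumor 5 combined high Il1b (17.2) with the lowest Il1a (1.97) and Il1rl1 (0.251). Tumor 1 was closest to Dlx3 KO skin, within 1.12 on the log2 scale for all 10 members, and led the tumors in Il1a, Il18, Il1r1, Il1r2, Il18r1 and Il1rap.

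**Figure D4:**
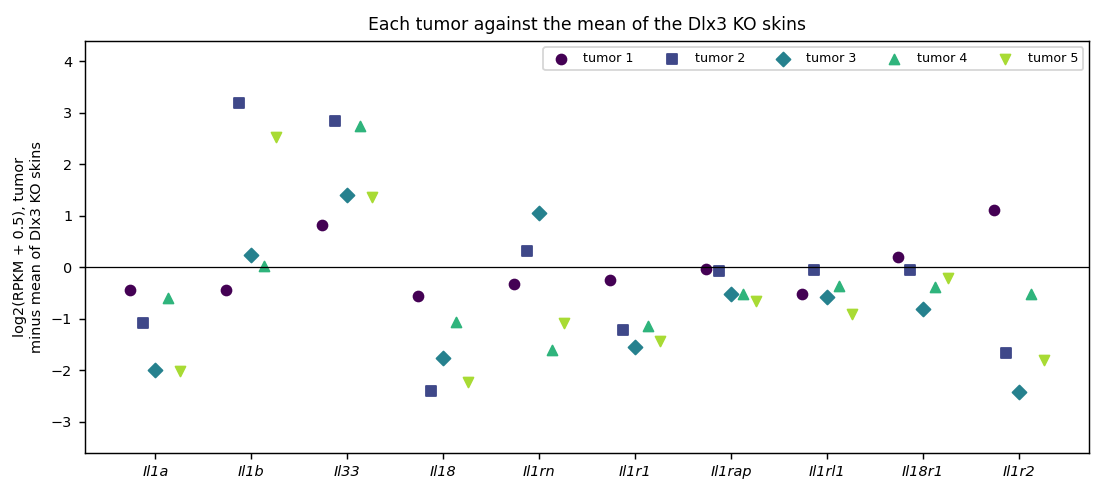
Difference of each tumor from the mean of the Dlx3 KO skins on the log2(RPKM + 0.5) scale for the 10 members, 1 symbol per tumor. All 5 tumors are above 0 for Il33 and below 0 for Il18, Il1a and Il1r1, while Il1b, Il1rn and Il1r2 lie on both sides.

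The other family ligands are those of the IL-36 branch, Il1f6, Il1f8 and Il1f9, their antagonist Il1f5, and Il1f10 (IL-38). All but Il1f10 had higher means in Dlx3 KO skin (49.3 to 183 RPKM) than any of the 10 members. Il1f9, IL-36γ, measured 14.8, 37.7 and 9.89 RPKM for WT skin, 88.7, 88.2 and 91.3 for Dlx3 KO skin and 101, 68.6, 59.4, 90.3 and 21.4 for the tumors. Il1f6, IL-36α, measured 4.83, 9.72 and 0.83 RPKM, 31.1, 55.9 and 61.1, and 29.5, 86.7, 20.5, 40.0 and 2.96 in the same order. Il1f5, Il1f6, Il1f8 and Il1f9 were each higher in all Dlx3 KO skins than in all WT skins, with log2 fold changes of 2.48, 3.52, 3.33 and 2.30, and none passed the test (adjusted p from 0.256 to 0.415). Among all genes tested, 11.3% were wholly higher in Dlx3 KO skin. Without the library labelled WT skin 2 Il1f9 passed, at 2.83 (adjusted p = 0.0272). Il1f10 ran the other way, at 15.4, 0.79 and 10.7 RPKM in WT skin, with the low value in the library labelled WT skin 2, at 0.939 to 1.196 in Dlx3 KO skin and at 0.17 to 1.05 in the tumors. Its log2 fold change between the skins was -1.9996 (adjusted p = 0.452), and -3.12 (adjusted p = 0.0008) without that library.

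Against WT skin, Il1f9 was called higher in the tumors (1.74 ± 0.50, SE, adjusted p = 0.0375) and Il1f10 lower (-2.75 ± 0.66, adjusted p = 0.0167), while 0 of these 5 ligands were called against Dlx3 KO skin. Of all genes tested, 3.56% were called higher and 12.0% lower against WT skin, and 7.55% were called against Dlx3 KO skin. The call of Il1f9 ended without Dlx3 KO skin 1, 2 or 3 (adjusted p = 0.0525, 0.0560 and 0.0543), tumor 2, 3 or 4 (0.0790, 0.0698 and 0.0766) or WT skin 1 or 3 (0.101 and 0.157). That of Il1f10 ended without WT skin 1 (0.0673) or 3 (0.0814). Without tumor 5, 4 of the 5 ligands were called against WT skin, with Il1f6 at 3.21 (adjusted p = 0.0108) and Il1f8 at 2.23 (0.0164) in addition. In that setting 2246 of 14233 genes were called. With library weights Il1f5 (-1.80, adjusted p = 0.0077) and Il1f8 (-1.61, 0.0065) were called lower against Dlx3 KO skin. Of the other receptors and the soluble binder, Il1rl2 (the IL-36 receptor), Sigirr and Il18bp were tested and 0 called in any comparison, but with library weights Sigirr (-0.74, adjusted p = 0.0068) and Il1rl2 (-0.59, 0.0197) were called lower against Dlx3 KO skin. Il1rl2 had means of 10.9, 14.4 and 9.38 RPKM in WT skin, Dlx3 KO skin and tumors. Il18rap, Il1rapl1 and Il1rapl2 had means under 0.5 RPKM and were not tested.

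**Figure D5:**
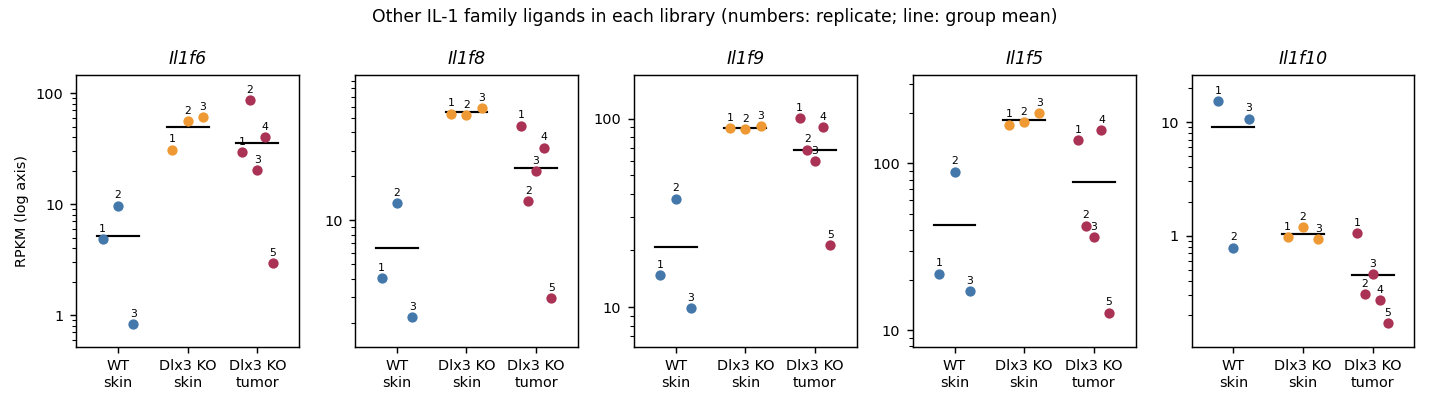
RPKM (log axis) of the 5 other IL-1 family ligands in each library, numbered by replicate, with the group mean as a line. Il1f6, Il1f8, Il1f9 and Il1f5 are higher in all 3 Dlx3 KO skins than in all 3 WT skins, and tumor 5 is the lowest tumor for each of the 5 genes.

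Genes that cut or release the ligands were described from a list of 18, of which 12 were tested. None was called between the skins, and 1 without the library labelled WT skin 2. Of the 12, 1 was called against Dlx3 KO skin and 3 against WT skin, where 7.55% and 15.5% of all genes were called. Against Dlx3 KO skin the mast cell protease Mcpt4 fell (-2.24, adjusted p = 0.0272). Summed mast cell and basophil markers were at 77.5 to 114 RPKM in Dlx3 KO skin and 8.24 to 44.8 in the tumors. Of these markers 7 were tested and 3 called lower, and by sign 6 were lower and 1 higher. The part of mast cells in the fall of Mcpt4 was not tested. No gene of the list of 18 was called without Dlx3 KO skin 1, 2 or 3 or without tumor 3, and 3 were without tumor 1. Against WT skin Casp1, which cuts IL-1β and IL-18, rose (0.94, adjusted p = 0.0121), as did the calpain subunit Capns1 (0.88, adjusted p = 0.0489), and the neutrophil-type protease Prtn3 fell (-1.54, adjusted p = 0.0132). Casp1 measured 15.5, 18.6 and 12.5 RPKM in WT skin against 21.7 to 37.8 in the tumors, without overlap. Leaving out WT skin 1 or 3 left 1 called gene of this list in place of 3, and both alternative scalings raised the number to 8. Over all 14233 genes these scalings raised the calls against WT skin from 2208 to 2817 (median-ratio) and 2834 (quantile).

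Of 25 signalling genes between the receptors and NF-kB, all were tested. In the comparison with Dlx3 KO skin 3 of 25 fell, where 6.56% of all genes were called lower, with a list median of -0.33 against -0.23 over all genes. They were Irak3, an inhibitor of the receptor complex (-1.95, adjusted p = 0.0336), the kinase Map3k8 (-1.50, adjusted p = 0.0469) and the ubiquitin ligase Peli1 (-1.32, adjusted p = 0.0304). Irak3 was at 8.30 to 10.8 RPKM in Dlx3 KO skin and at 7.24, 1.87, 1.34, 2.11 and 0.74 in tumors 1 to 5, again with tumor 1 near the skins. Tumor 1 also had the highest macrophage, fibroblast, endothelial, mast cell and T cell marker sums of the tumors. Its sums of neutrophil markers and of muscle and adipocyte markers were the lowest. The part of any of these cells in the fall of Irak3 was not tested. The count of 3 called signalling genes became 0 without any 1 of the 3 Dlx3 KO skins or of tumors 2, 3 and 4, and 1 without tumor 5 or WT skin 3. None was called between the skins or against WT skin, although both alternative scalings gave calls against WT skin (6 and 9), as did leaving out tumor 1 (2), tumor 5 (1) or the library labelled WT skin 2 (2). Over all 14233 genes the scalings called 2817 and 2834 there.

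Of 26 genes that IL-1 family signals are known to induce, 24 were tested. Against WT skin 8 rose in the tumors and 0 fell, where 3.56% of all genes were called higher and 12.0% lower, with a median log2 fold change of 1.41 against -0.14 over all genes. Those with the smallest p were the calprotectin subunits S100a9 (5.31, adjusted p = 0.0017) and S100a8 (4.42, adjusted p = 0.0028), followed by Il24 (3.22, adjusted p = 0.0055), an IL-20 family cytokine, and Il23a, a subunit of IL-23 (2.08, adjusted p = 0.0119). The other 4 were Cxcl1, Lcn2, Ptges and Hif1a. S100a9 measured 69.3, 51.0 and 5.50 RPKM for WT skin, 386, 418 and 736 for Dlx3 KO skin and 1395, 3277, 514, 1807 and 379 for tumors 1 to 5. The count was 5 without tumor 2 or WT skin 1, 3 without WT skin 3 and 1 with a run term. Against Dlx3 KO skin only Il24 rose (3.16, adjusted p = 0.0112) and only Ccl20 fell (-1.87, adjusted p = 0.0433), and the count of 2 lay between 0 and 8 when 1 library was left out (0 without Dlx3 KO skin 2 or 3, 1 without Dlx3 KO skin 1, tumors 2, 3, 4 or 5, or WT skin 1, and 8 without tumor 1). Il24 did not exceed 0.101 RPKM in any skin and reached 0.565, 13.7, 7.10, 5.34 and 3.84 in tumors 1 to 5. None of the 24 was called between the skins.

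The genes whose log2 levels ran most like each member over the 11 libraries were taken as a description, with the 3 groups adding to every r. Il33 was most like Tcim (r = 0.95), the collagenase Mmp13 (0.95) and the laminin chain Lama3 (0.95), with Mmp13 at means of 0.446, 0.465 and 15.6 RPKM in WT skin, Dlx3 KO skin and tumors. Il1b was most like Spp1 (osteopontin, 0.97), Fam126a (0.94) and Larp1b (0.93). Il18 was most like Olah (0.95), Ggh (0.95) and Gch1 (0.95), and Il1a like Slc5a8 (0.97), Max (0.95) and Sptssa (0.95). Il1r1 had the closest matches of all members, Ccpg1, Flot2 and Enpp2 (0.99 each). Il1r2 was most like Ntf3 (0.95), Irf7 (0.95) and Rasl10a (0.94), and Il1rn like Ppa1 (0.92), Gml (0.89) and Abhd17c (0.88). Of the low receptors, Il18r1 was most like Ctsw (0.87), a protease of cytotoxic lymphocytes, followed by Rictor (0.83) and the T cell gene Cd3e (0.81), Il1rl1 was most like Cox14 (0.89) and Il1rap most like Kdm3a (0.93). Among the members themselves Il33 and Il1r1 ran opposite (r = -0.82), Il1r1 and Il1r2 alike (0.76) and Il1b and Il33 alike (0.68).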

How the data were processed

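Total RNA was depleted of ribosomal RNA and sequenced from 1 end over 50 bp, per the labels' protocols. The submitters' processing notes name bcl2fastq 2.20.0.422, TopHat2 2.1.1, Bowtie, Partek and the build mm10. RPKM per gene, on a linear scale, were deposited by the authors. Their ANOVA results, per the file headers, give log2 group means, which for the members equal means of log2(RPKM + 0.1) within 5.59e-06. The same deposited results give a p-value and q-value, a ratio and a signed fold change per comparison. The deposited sample sheet gives the count of alignments and the sequencing run.

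RPKM depend on the composition of a library. Over all 3 groups, log2(RPKM + 0.5) of 14233 genes was fitted with limma 3.58.1 in R 4.3.3 (trend and robust options, 8 residual degrees of freedom). Tests were two-sided with Benjamini-Hochberg adjustment over these genes, and calls needed an adjusted p under 0.05. Ratios were tested by exact permutation. Reads were taken as whole within 0.02 plus 4e-05 of their number, trying up to 400 in the lowest library, and for 5 members no step was found. Precision was judged from the spread between libraries. Within groups the libraries correlated at 0.874 to 0.980, and 0 pairs were identical.

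The members and gene lists were chosen with earlier results of these data known, so what matches those is not independent support. Named were all members, all other family ligands and receptors, up to 4 genes with the smallest p per list and comparison beside the names of called ones, and the 3 genes most like each member, without predicted, clone-named, small RNA and immune receptor segment genes. Groups follow the titles. Alternatives covered the pseudocount, filter, scaling, weights, run, replicate number, Xist, Rn45s and leaving out each library.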

Additional observations from a re-analysis of the deposited data

Results flagged for a closer look

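In tumor 1, Il1r1 was at 5.15 RPKM, while the other 4 tumors had 1.80 to 2.52. The gap to the next tumor was 0.785 of the whole range, above Dixon's critical value of 0.71 for 5 samples. Il1r2 stood apart in the same tumor, at 35.2 RPKM against 2.55 to 10.96 in the others, with a gap of 0.742 of the range. The summed neutrophil markers stood apart in tumor 5, at 243.5 RPKM against 13.4 to 27.0 in the other tumors, with a gap of 0.941 of the range. Of 30 genes, log2 ratios and marker sums checked over the tumors these 3 exceeded the critical value. Its nominal rate of 1 in 20 assumes normal values and independent checks. Genes and sums were checked as plain RPKM, and all checks share the same tumors, so that rate does not apply here.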

How the results depend on the processing

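Between the skins, 0 genes were called, 2 with library weights and 0 to 229 when 1 library was left out (229 without the library labelled WT skin 2, 13 without tumor 5). Against Dlx3 KO skin the 1075 called genes became 1627 in the first run alone, 5969 with library weights, 357 with the replicate block, 204 in the second run alone (a choice made after seeing the data), 681 without the 2 libraries highest in Rn45s, 579 with Xist as a term and 347 to 2867 when 1 library was left out. In either run alone 1 group has a single library, assumed to vary like the others. The 3 called members became 6 with library weights, 1 with a run term and 0 with no filter on low values, with only the 2 groups compared, with the replicate block, in the second run alone, without the 2 libraries highest in Rn45s and with Xist as a term, and 0 to 5 when 1 library was left out. Against WT skin the 2208 called genes became 986 with the replicate block, 705 with a run term and 1308 to 3284 when 1 library was left out. The 2 called members there became 0 with a run term and 1 to 3 when 1 library was left out, and the replicate block ended the call of Il1r1 (adjusted p = 0.128). The cause of these changes was not tested, beyond the smaller number of libraries where some were left out. Replicate numbers did not pair the libraries (correlations of same-numbered deviations from -0.406 to 0.185), so the block is only an added term. Scaling moved the median log2 fold change of all genes against Dlx3 KO skin from -0.23 to 0.02 (median-ratio) and 0.09 (quantile), and the higher and lower calls from 142 and 933 to 342 and 799, and 487 and 634. Against WT skin the median went from -0.14 to 0.04 and 0.14, and the calls from 506 and 1702 to 1185 and 1632, and 1461 and 1373.

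Of the ratios, Il1r2 over Il1r1 against Dlx3 KO skin ranged from -0.39 to 0.32 with 1 library left out, and Il1rn over its ligands from -0.94 to 0.046. With the replicate block the latter was 0.44 against Dlx3 KO skin and 0.24 against WT skin. The other reversals of sign were in log2 fold changes that passed no test. Between the skins Il1r1 ranged from -0.24 to 0.083 and Il1rl1 from -0.082 to 0.39 with 1 library left out, and Il1rl1 was -0.046 with Xist as a term. Against Dlx3 KO skin, Il1rn was 0.35 with the replicate block, quantile scaling gave 0.20 for Il18r1, 0.060 for Il1rap and 0.13 for Il18bp, and the second run alone gave 0.29 for Il1f6 and 0.23 for Il18bp. Against WT skin, the first run alone gave -0.28 for Il1a, -0.30 for Il18, 0.029 for Il18r1, -0.10 for Il1rap, -1.31 for Il1f5, -0.27 for Il1f6, -0.67 for Il1f8 and -0.54 for Il18bp. A run term gave -0.0020 for Il18, 0.036 for Il18r1, -0.34 for Il1f5 and -0.072 for Il18bp. Median-ratio scaling gave 0.12 for Il18r1, 0.015 for Il1rl2 and 0.044 for Sigirr, and quantile scaling 0.084 for Il1rl1, 0.47 for Il18r1, 0.020 for Il1rl2 and 0.28 for Sigirr. Il18r1 was 0.00022 with a pseudocount of 1, and the replicate block gave 0.022 for Il18r1 and 0.016 for Il1rl2. With 1 library left out the ranges were -0.12 to 0.13 for Il18r1, -0.53 to 0.045 for Il1rl2, -0.41 to 0.23 for Sigirr and -0.20 to 0.20 for Il18bp. The lowest read number recovered for a member was 21, for Il1b in the library labelled WT skin 2, and for Il1rl1, Il18r1 and Il1rap no read numbers were recovered.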

Other observations

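The following genes of the list of induced genes were picked after their values were seen, and no test was run. Tslp, an epithelial cytokine of allergic inflammation, was at 139 RPKM in tumor 4 and between 0.387 and 4.44 in the other 10 libraries. Tumors 2 and 4 had the highest Il33, and Tslp in tumor 2 was at 1.204. Cxcl5, a neutrophil chemokine, was at 31.4 RPKM in tumor 5 and 4.56 in tumor 2, the tumors high in Il1b, and at no more than 1.62 in the other 9 libraries. Cxcl3, another, was at 20.8 and 11.5 RPKM in those tumors and at no more than 1.225 elsewhere.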
